A study of Mus musculus with 24 samples.

Results

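The circadian clock output genes described here are 10 genes taken by symbol from both count tables, Dbp, Tef, Per1, Per2, Per3, Nr1d1, Nr1d2, Ciart, Arntl and Cry1, of 55254 genes counted. The RNA came from nuclei of the hippocampus. The mice were males on a C57BL/6N background, 6 months old, housed in home cages with equal hours of light and dark. Nuclei were sorted by NeuN, a neuronal nuclear protein, into NeuN+ and NeuN- fractions, each from WT, Mutyh-/-, Ogg1-/- and double knockout mice that lack both (DKO), with 3 replicates in each of the 8 groups, 24 libraries in all. Mutyh and Ogg1 encode DNA glycosylases that act on oxidised guanine or on the adenine paired with it. The comparison asks whether the genotypes differed in clock state at collection, and the time of day of collection was not given in the sources used here. The methods speak of nuclei pooled from several animals, and whether a replicate is an animal, a pool or part of a pool is unclear, so p-values measure only the spread between these libraries. Total counts per library ranged from 56563586 to 96192142 in NeuN+ and from 56982273 to 92409869 in NeuN-. All 10 genes passed the filter on low counts in both fractions, and the lowest count of any of them in a library was 245, for Ciart.

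The circadian clock is a transcriptional loop present in most cells. Arntl (BMAL1), with its partner Clock, binds E-box motifs and drives the Per and Cry genes, whose proteins repress it, and Nr1d1 and Nr1d2 (REV-ERB alpha and beta), which repress Arntl in turn. Dbp and Tef are PAR bZIP factors that carry the rhythm to D-box motifs of output genes, and Ciart is a further repressor of the loop. In a rhythmic tissue, Arntl therefore runs opposite to Dbp and Nr1d1.

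The targeted genes were examined first. Mutyh was at 1.23 ± 0.0717 CPM (counts scaled to a common library size; SD, n = 3) in NeuN+ WT and at 10.9 ± 0.901 in the NeuN+ libraries labelled Mutyh-/-, and at 9.94 ± 1.95 in those labelled DKO. In NeuN- it was at 2.60 ± 0.215, 9.44 ± 0.236 and 7.97 ± 1.28 CPM in the same order. Ogg1 was at 3.29 ± 0.502 CPM in NeuN+ WT and 3.45 ± 0.227 in libraries labelled Ogg1-/-. Counts for a whole gene do not resolve its exons, so the level of neither gene marks its deletion, and the genotype of every library below is the one on its label. The fractions matched their gate, since the neuronal marker Rbfox3 was 16.2-fold higher in NeuN+ WT than in NeuN- WT, and all 8 neuronal markers were higher and all 5 oligodendrocyte and 6 astrocyte markers lower in NeuN+ (edgeR quasi-likelihood test, adjusted p under 0.05). In bulk nuclei, fewer cells of a type and less RNA per cell cannot be told apart. Among NeuN- libraries, those labelled DKO replicate 1 and Ogg1-/- replicate 3 stood apart from the other libraries of their groups in the clock genes. Over all genes, the NeuN- library farthest from its group mean was DKO replicate 3 (root mean square deviation 0.35 on the log2 scale), followed by Ogg1-/- replicate 3 (0.32). With any 1 of these libraries left out, 0 of the 10 genes passed an adjusted p under 0.05 in any NeuN- comparison between genotypes by edgeR's test, as with all kept. The counts at an unadjusted p under 0.05 did move without DKO replicate 1, as given with the NeuN- counts. This library was singled out by the clock genes, so their smaller spread without it follows in part from that choice.

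Per3, a period gene, was the clock gene that edgeR's quasi-likelihood test called as different between genotypes. In NeuN+ it was at 75.1, 72.9 and 86.0 CPM in WT and at 128, 123 and 98.0 CPM in the libraries labelled Mutyh-/-. All 3 of these lay above all 3 WT libraries. Per3 rose by a log2 fold change of 0.58 ± 0.10 (SE), with an adjusted p of 0.0129 in edgeR's quasi-likelihood test. Libraries labelled Ogg1-/- were at 97.0, 112 and 89.8 CPM and those labelled DKO at 92.6, 84.9 and 85.1 CPM. The Ogg1-/- libraries lay above WT without overlap, at a log2 fold change of 0.33 ± 0.10 that did not pass (edgeR adjusted p = 0.140). Per3 was called in Ogg1-/- by DESeq2, with no filter and in the fit of 2 genotypes. The DKO libraries overlapped WT. The call in Mutyh-/- was lost when WT replicate 1 (adjusted p = 0.0812), WT replicate 2 (0.108), Mutyh-/- replicate 1 (0.0850) or Mutyh-/- replicate 2 (0.0638) was left out, and over the 12 fits without 1 library it ranged from 0.000482 to 0.108 in edgeR's test. Per3 lies at chr4:151003652-151044665 on the minus strand (GRCm38), where it overlaps Camta1 on the same strand.

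Per2, its paralogue, was at 36.3, 45.5 and 51.1 CPM in NeuN+ WT and at 58.6, 73.0 and 56.2 CPM in Mutyh-/-. The groups did not overlap, and the log2 fold change of 0.50 ± 0.13 did not pass (edgeR adjusted p = 0.0839). It passed without Mutyh-/- replicate 3, at a log2 fold change of 0.58 (edgeR adjusted p = 0.0273). It also passed with no filter (edgeR adjusted p = 0.00159) and with edgeR's likelihood ratio test (0.0182). Nr1d1 was at 34.0, 40.2 and 35.1 CPM in NeuN+ WT. It was at 32.2, 33.3 and 26.6 CPM in Mutyh-/-, at 30.7, 27.6 and 30.5 CPM in Ogg1-/-, and at 31.1, 32.4 and 27.7 CPM in DKO. Every library of the 3 knockout groups lay below the lowest WT library, and these comparisons share the same WT libraries. The log2 fold changes of Nr1d1 were -0.24 ± 0.09, -0.32 ± 0.09 and -0.28 ± 0.09, and none passed (edgeR adjusted p = 0.182, 0.134 and 0.209). In Ogg1-/-, Nr1d1 was called by DESeq2, with no filter and in the fit of 2 genotypes. Cry1, a repressor, was at 8.99 ± 0.760 CPM (SD, n = 3) in NeuN+ WT and at 10.7 ± 0.645 CPM in Mutyh-/-. Its groups did not overlap, and it did not pass (edgeR adjusted p = 0.175).

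Counted together, 1 of the 10 clock genes was a DEG (adjusted p under 0.05 and absolute log2 fold change above 0.5) in NeuN+ Mutyh-/-, beside 0.428% of all tested genes, and 0 were in Ogg1-/- (0.574%) or DKO (0.302%). By the adjusted p alone the counts were also 1, 0 and 0, beside 0.641%, 1.1% and 0.494% of all genes. At an unadjusted p under 0.05 the edgeR counts were 4, 2 and 1, beside 18.7%, 12.3% and 13.5% of all genes. DESeq2 called 1, 2 and 0, beside 5.90%, 4.01% and 3.56%. Without DKO replicate 1, singled out by its clock gene levels, the unadjusted count in DKO was 5, beside 17.1%, with 0 called by edgeR. Groups did not overlap for 4, 2 and 1 of the 10 genes, beside 21.6%, 20.1% and 17.5% of all genes. The median log2 fold change of the clock genes was 0.09, 0.00 and 0.02, and that of all tested genes was within 0.01 of 0. The joint test of the 4 genotypes called 1 clock gene, Per3, beside 1.06% of genes (edgeR adjusted p = 0.0302), and this call was lost without any of 5 libraries, WT replicate 1, WT replicate 2, Mutyh-/- replicate 1, Mutyh-/- replicate 2 and DKO replicate 2. Between knockouts of NeuN+, 0 were called in DKO against Mutyh-/- (0.163% of all genes), DKO against Ogg1-/- (0.252%) and Ogg1-/- against Mutyh-/- (0.654%) by edgeR, with 4, 0 and 3 at an unadjusted p under 0.05 (6.86%, 4.26% and 12.7% of all genes) and 1, 0 and 0 by DESeq2 (0.323%, 0.315% and 1.97%). Without DKO replicate 1 the unadjusted counts of DKO against Mutyh-/- and against Ogg1-/- were 7 and 3, beside 5.12% and 6.12% of all genes. These counts leave out a library singled out by the same genes and are a description only.

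**Figure D1:**
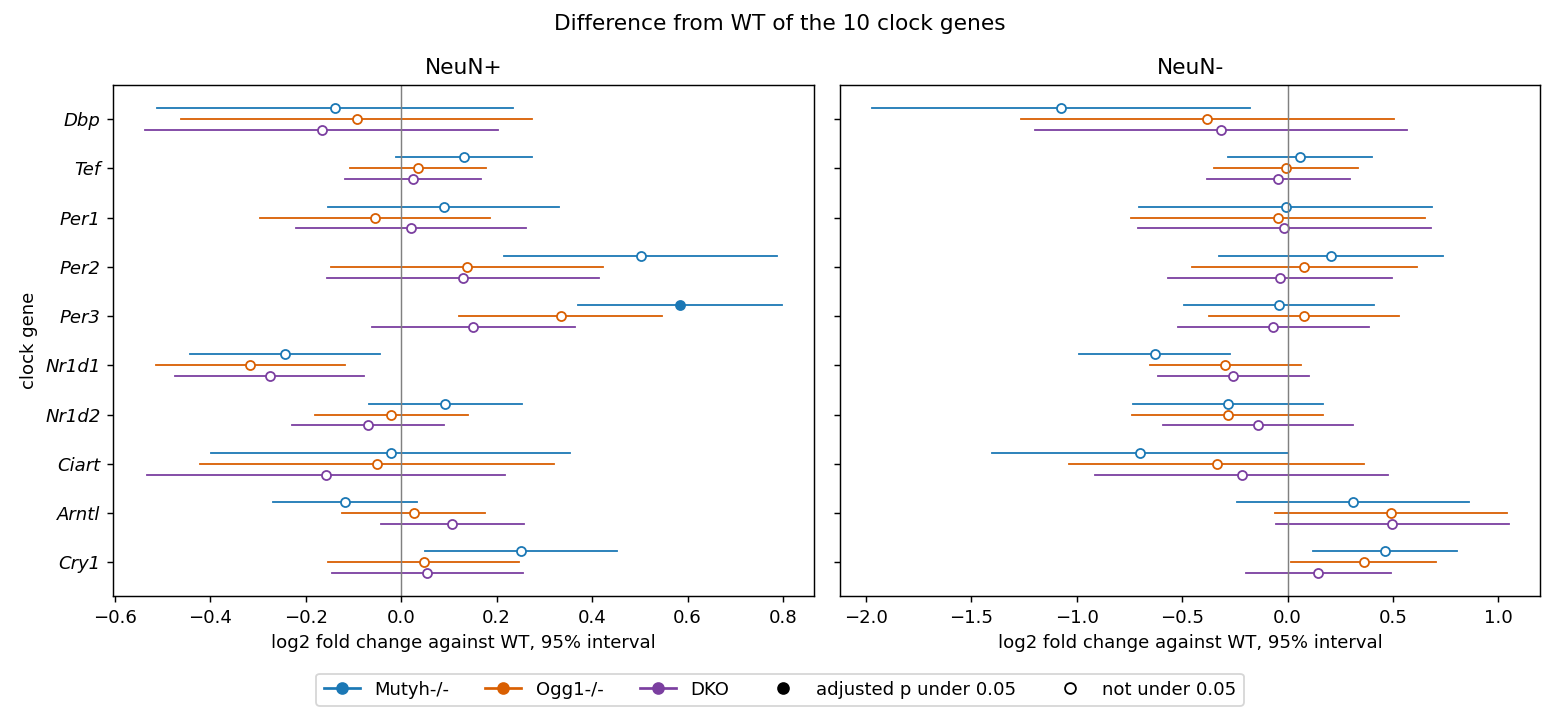
Log2 fold change against WT of each clock gene (points) with its 95% interval (lines), for NeuN+ and NeuN- and for each knockout by colour. The filled point, Per3 in NeuN+ Mutyh-/- at 0.58, is the one with an adjusted p under 0.05 in edgeR's quasi-likelihood test. The intervals are wider in NeuN-, whose axis spans a wider range.

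In NeuN-, Dbp was at 30.3, 31.9 and 22.3 CPM in WT and at 14.9, 14.9 and 10.4 CPM in Mutyh-/-. All 3 Mutyh-/- libraries lay below all 3 WT libraries. The log2 fold change was -1.08 ± 0.41 with a 95% interval from -1.97 to -0.18, and it did not pass over all genes (edgeR adjusted p = 0.284). In Ogg1-/- Dbp was at 19.2, 12.5 and 33.6 CPM, and in DKO at 39.4, 16.8 and 11.7 CPM. These groups reached both above and below the WT libraries, so that the 95% intervals, -1.27 to 0.51 in Ogg1-/- and -1.20 to 0.57 in DKO, hold changes of more than 1 on the log2 scale. Dbp lies at chr7:45705088-45710203 on the plus strand.

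Nr1d1 was at 57.4, 58.2 and 52.4 CPM in NeuN- WT and at 37.1, 38.4 and 33.6 CPM in Mutyh-/-, again without overlap. Its log2 fold change of -0.63 ± 0.17 did not pass in the fit of all 4 genotypes (edgeR adjusted p = 0.169). In a fit of WT and Mutyh-/- alone, which leaves out the widely spread Ogg1-/- and DKO libraries, both Nr1d1 (log2 fold change -0.63, edgeR adjusted p = 0.00415) and Dbp (-1.07, 0.0308) passed. DESeq2 called Nr1d1 as well (adjusted p = 0.0117), and the range over the settings is given among the dependences on processing. Ciart was at 7.05, 8.12 and 6.70 CPM in WT and at 5.04, 4.97 and 3.51 CPM in Mutyh-/-, with an edgeR adjusted p of 0.367. Cry1 was at 10.4, 14.4 and 15.1 CPM in WT and at 19.7, 18.1 and 17.3 CPM in Mutyh-/-, with an edgeR adjusted p of 0.240. Arntl was at 55.6, 52.5 and 68.8 CPM in WT, at 64.9, 69.5 and 86.0 CPM in Mutyh-/-, at 86.5, 101 and 62.7 CPM in Ogg1-/-, and at 47.4, 99.3 and 104 CPM in DKO. The highest and lowest Arntl levels of NeuN- were thus both in DKO libraries.

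By edgeR's test, 0 of the 10 clock genes were DEGs in NeuN- Mutyh-/- (0.273% of all tested genes), Ogg1-/- (0.229%) or DKO (0.116%), and 0 passed an adjusted p alone (0.32%, 0.342% and 0.179%). At an unadjusted p under 0.05 the counts were 3, 1 and 0, beside 13.7%, 11.8% and 12.4% of all genes, and DESeq2 called 1, 0 and 0, beside 2.89%, 2.83% and 2.06%. Groups did not overlap for 5, 0 and 0 clock genes, beside 19.2%, 19.4% and 16.8% of all genes. The joint test of the 4 genotypes called 0 (0.76% of all genes), with 2 at an unadjusted p under 0.05 (13.5%) and 1 by DESeq2 (6.49%). Between knockouts, edgeR called 0 in DKO against Mutyh-/- (0.148%), DKO against Ogg1-/- (0.157%) and Ogg1-/- against Mutyh-/- (0.788%), with 1, 0 and 0 at an unadjusted p under 0.05 (11%, 4.34% and 11.5% of all genes) and 0, 0 and 0 by DESeq2 (1.14%, 0.292% and 2.78%). Without DKO replicate 1, which leaves 2 libraries in that group, the unadjusted counts were 7 in DKO against WT, beside 15.6% of all genes, 5 in DKO against Mutyh-/- (11%) and 7 in the joint test (15.7%), and edgeR still called 0. As that library was singled out by the same clock genes, these higher counts follow in part from the choice and are a description only. Across both fractions, 1 of 60 comparisons of a clock gene with WT passed an adjusted p under 0.05 by edgeR's quasi-likelihood test.

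**Figure D2:**
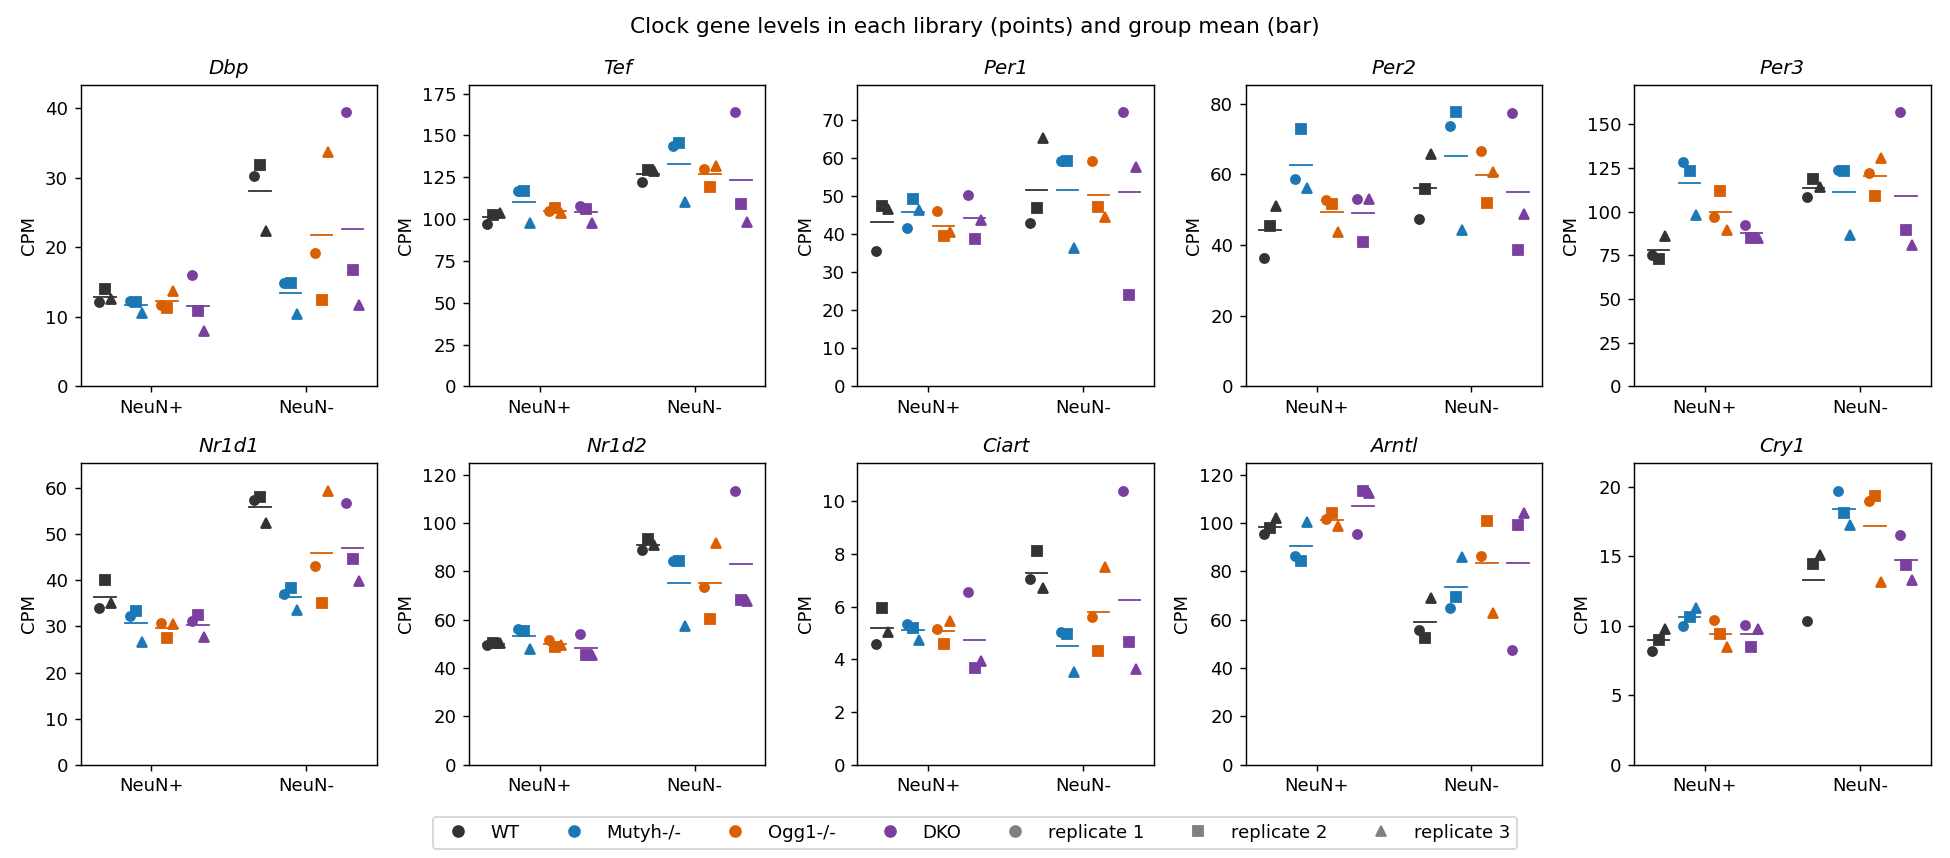
CPM of each clock gene in every library (points, shaped by replicate number and coloured by genotype) with the group mean (bar), each vertical axis starting at 0. In NeuN-, the DKO replicate 1 library has the highest Dbp, at 39.4 CPM, and the lowest Arntl, at 47.4 CPM.

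An effect past the threshold in 1 fraction only is not shown to differ between fractions, and this difference was tested. For the effects of Mutyh-/-, Ogg1-/- and DKO, 0 clock genes had an interaction with the fraction by edgeR, in a fit that does not pair the fractions, beside 0.0209%, 0.0537% and 0.0567% of all genes. At an unadjusted p under 0.05 the counts were 1, 0 and 0, beside 8.58%, 7.09% and 9.40% of all genes. The unadjusted count for Mutyh-/- was higher with genotype and number as a block, as given among the dependences on processing. DESeq2 called 0 in each, beside 0.552%, 0.338% and 1.34%. For Per3 and Mutyh-/- the interaction was 0.61 ± 0.25 on the log2 scale (edgeR adjusted p = 0.481).

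Pooled over the 4 genotypes, the spread between libraries of the same genotype was wider in NeuN- for 10 of the 10 clock genes, by a median of 2.11 times. The share of all genes with a wider spread in NeuN- was not counted. The fit of all genes was also more variable in NeuN-, with a common coefficient of variation of 0.124, beside 0.0823 in NeuN+. By genotype, the fold between the highest and the lowest library was wider in NeuN- for 10 of 10 clock genes in DKO, 9 in Mutyh-/-, 9 in Ogg1-/- and 5 in WT. Its median over the clock genes in NeuN- was 1.97 in DKO, 1.43 in Mutyh-/-, 1.5 in Ogg1-/- and 1.26 in WT, and in NeuN+ it was 1.19, 1.19, 1.18 and 1.18 in the same order. The SD within genotypes of log2 CPM had a median over the clock genes of 0.34 in NeuN- and 0.15 in NeuN+, beside 0.12 and 0.11 for all genes with a mean of at least 1 CPM. Dbp had the widest spread of the 10 in NeuN-, with an SD of 0.61, at percentile 98.8 of 20823 genes. Per1, which also responds to neuronal activity and glucocorticoids, had an SD of 0.50 at percentile 98.0. In NeuN-, 7 of the 10 genes were above percentile 90, and 4 of 20 other clock genes were. These values include DKO replicate 1, which stood apart from its group in the clock genes. The Arntl SD was 0.39 in NeuN- and 0.10 in NeuN+. The NeuN- value includes DKO replicate 1, at 47.4 CPM beside 99.3 and 104 CPM in its group. Spread also depends on a gene's level, and that part was not tested.

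**Figure D3:**
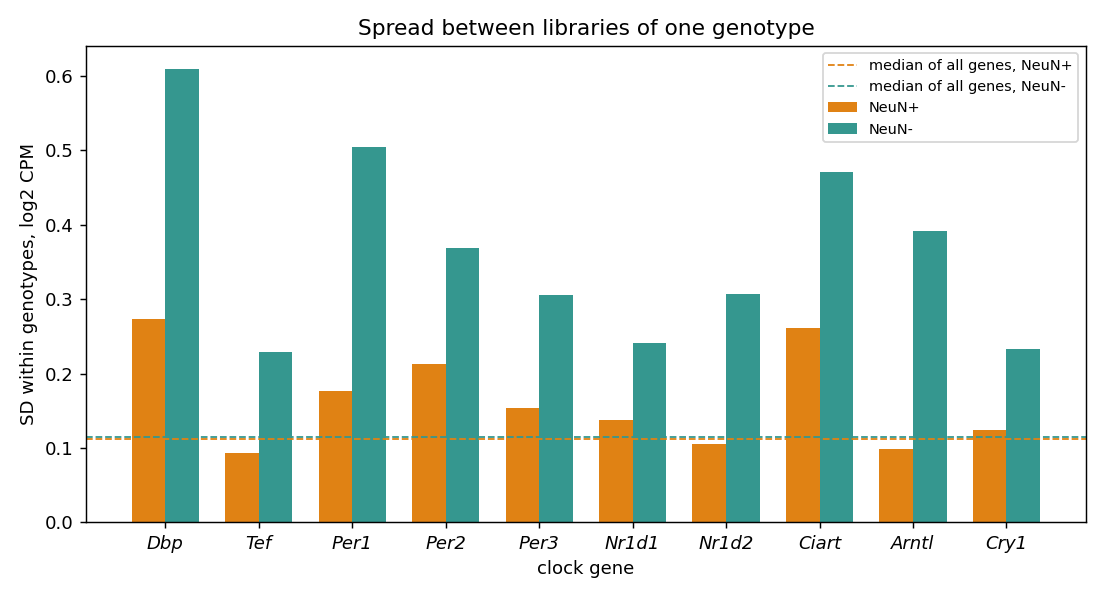
SD within genotypes of log2 CPM of each clock gene, as bars from 0, in NeuN+ and NeuN-, with dashed lines at the median of all genes. Each clock gene has the taller bar in NeuN-, up to 0.61 for Dbp.

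The ratio of Dbp to Arntl, which run opposite in a rhythmic tissue, was taken as a description of each library. In NeuN-, the log2 ratio of Dbp to Arntl was -0.88, -0.72 and -1.63 in WT and -2.12, -2.22 and -3.04 in Mutyh-/-. It was -2.17, -3.01 and -0.90 in Ogg1-/- and -0.27, -2.57 and -3.16 in DKO. The Mutyh-/- libraries all lay below WT, whereas Ogg1-/- replicate 3 lay among the WT values and DKO replicate 1 above them, with the other Ogg1-/- and DKO libraries below WT. The range within DKO was wider than the distance between any WT and any Mutyh-/- library. The log2 ratio of Per2 to Arntl gave another order, with -0.23, 0.09 and -0.07 in WT and 0.18, 0.16 and -0.95 in Mutyh-/-. Thus Mutyh-/- replicates 1 and 2 were low in Dbp and Nr1d1 and high in Per2 relative to WT, and replicate 3 was low in all 3 genes. In NeuN+ the log2 ratio of Dbp to Arntl was -2.98, -2.81 and -3.01 in WT, -2.81, -2.80 and -3.25 in Mutyh-/-, -3.13, -3.20 and -2.85 in Ogg1-/-, and -2.58, -3.38 and -3.81 in DKO.

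**Figure D4:**
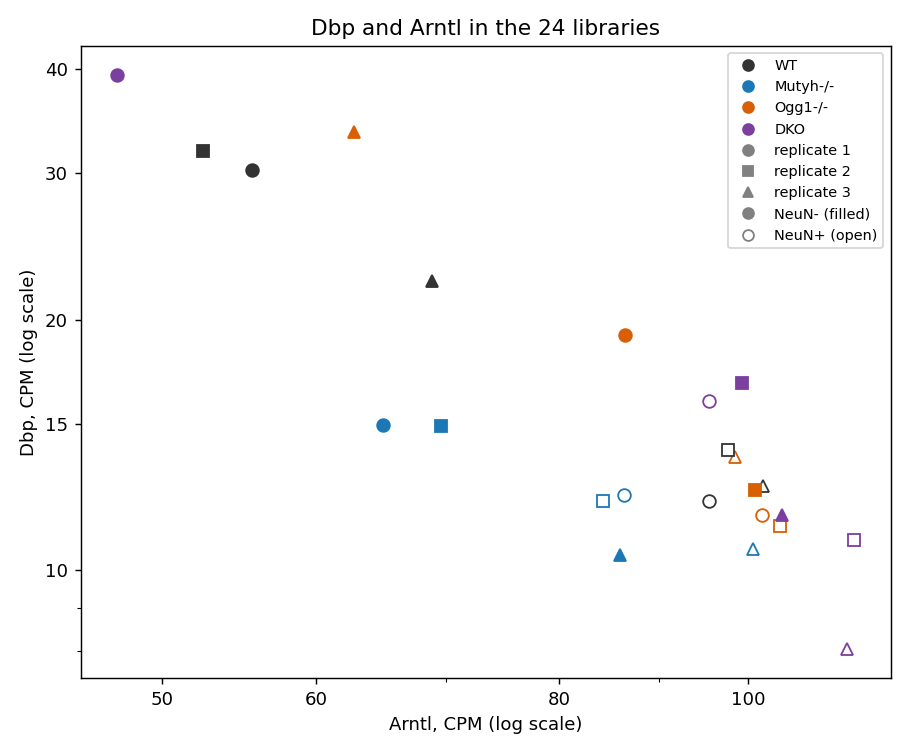
Dbp against Arntl in CPM, both on log axes, for the 24 libraries, filled for NeuN- and open for NeuN+. NeuN- libraries run from DKO replicate 1, with Dbp at 39.4 and Arntl at 47.4 CPM, to DKO replicate 3, at 11.7 and 104 CPM.

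Libraries with the same genotype and replicate number often kept their place in both fractions. For Dbp, the same number was highest in NeuN+ and NeuN- in 4 of the 4 genotypes, and for Per2 and Ciart also in 4. Over the 10 genes and 4 genotypes, the same number was highest in 25 of 40 cases (62.5%) and lowest in 25 (62.5%), beside 42.3% and 43.1% over 18328 genes. All 3 numbers kept their order in 15 of 40 cases (37.5%), beside 24.6% of cases over all genes. DKO replicate 1 had the highest Dbp of its group in both fractions, and Ogg1-/- replicate 3 likewise. The clock genes share a rhythm, so these cases are not independent, and the labels do not say that a number marks an animal.

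Between the fractions of WT, the clock genes were called about as often as all genes by the adjusted p alone, in the unpaired fit. Of the 10, 1 was higher and 6 were lower in NeuN+ at an adjusted p under 0.05, beside 72.4% of all genes called, and 1, Dbp, also exceeded a log2 fold change of 1, beside 42.9%. Dbp was at 12.1, 13.9 and 12.6 CPM in NeuN+ and at the NeuN- levels given above, a log2 fold change of -1.13 ± 0.34 (edgeR adjusted p = 0.00551). Nr1d2 was at 49.6, 50.2 and 50.5 CPM in NeuN+ and at 88.9, 93.4 and 90.8 CPM in NeuN-, and was lower in NeuN+ by a log2 fold change of -0.86 ± 0.17. Arntl went the other way, at 98.4 ± 3.22 CPM (SD, n = 3) in NeuN+ and 59.0 ± 8.68 in NeuN-, with a log2 fold change of 0.74 ± 0.20 (edgeR adjusted p = 0.00224). Per1, Per2 and Ciart did not pass in this unpaired fit. Per2 and Ciart passed with genotype and number as a block, as given among the dependences on processing. Per3 and Tef lost the call without replicate 2 (edgeR adjusted p = 0.104 and 0.138), and Tef also with upper-quartile factors (0.132). By the sample descriptions, the fractions were sequenced on different lanes, so a difference of lane cannot be separated from that of cell type.

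Per length of exon, the order of the levels in WT differed between fractions. In NeuN+, Arntl (13.1 ± 0.428 CPM per kb, SD, n = 3), Tef (12.9 ± 0.436) and Nr1d1 (11.8 ± 1.08) were highest and did not differ beyond their spread. Cry1 (2.69 ± 0.227) and Ciart (2.30 ± 0.308) were lowest. In NeuN-, Nr1d1 (18.2 ± 1.01 CPM per kb), Nr1d2 (16.8 ± 0.413) and Tef (16.1 ± 0.483) led, and Arntl was in place 8 at 7.84 ± 1.15. Nr1d2 and Tef did not differ beyond their spread. Per2, Dbp and Per1, at 9.61 ± 1.57, 9.40 ± 1.72 and 9.16 ± 2.11 CPM per kb, did not differ beyond their spread.

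Of 20 other clock genes, of which Rora and Btrc had the highest CPM in NeuN+ and Rora and Rorb in NeuN-, 0 passed an adjusted p under 0.05 in any knockout against WT by edgeR, with 4, 1 and 1 in NeuN+ and 4, 3 and 1 in NeuN- at an unadjusted p under 0.05, beside the shares of all genes given above (18.7%, 12.3% and 13.5% in NeuN+, 13.7%, 11.8% and 12.4% in NeuN-), which also stand beside the counts that follow. Among 18 activity genes, with Homer1, Nr4a3 and Arc among the highest, 0 passed by edgeR in any of these comparisons, with 0, 2 and 2 in NeuN+ and 1, 1 and 1 in NeuN- at an unadjusted p under 0.05. Among glucocorticoid genes, 13 tested in NeuN+ and 14 in NeuN-, with Zbtb16, Sgk1 and Tsc22d3 among the highest, 0 passed by edgeR, with 5, 4 and 2 and with 4, 0 and 1 at an unadjusted p under 0.05. For these lists DESeq2 calls were not tabulated. A list of temperature genes held heat shock and chaperone genes together with Cirbp and Rbm3, which rise in the cold. Its counts, medians and sums thus have no common direction of temperature. Hspa8 and Hsp90aa1 had the highest CPM, at means of 187 and 157 in NeuN+, and weigh most in its sums. Of 9 genes of this list tested in NeuN+, 4, 4 and 1 were at an unadjusted p under 0.05. Of these, 3 of 4 were higher in Mutyh-/- and 4 of 4 lower in Ogg1-/-. Hsp90aa1 was at 195 ± 16.0 CPM (SD, n = 3) in WT, 131 ± 20.9 in Ogg1-/- and 132 ± 4.61 in DKO. It fell in NeuN+ Ogg1-/- (log2 fold change -0.59 ± 0.11, edgeR adjusted p = 0.0229) and DKO (-0.58 ± 0.11, 0.0394). The temperature genes summed in NeuN+ to 489, 557 and 588 CPM in WT, 608, 635 and 447 in Mutyh-/-, 497, 436 and 338 in Ogg1-/-, and 372, 453 and 478 in DKO. Mutyh-/- replicates 1 and 2 were the highest of NeuN+ and replicate 3 lay below WT, and Per3 was likewise higher in replicates 1 and 2 than in replicate 3. Their summed level in NeuN- was 407, 436 and 546 CPM in WT and 887, 932 and 533 CPM in Mutyh-/-, with a median log2 fold change of 0.80, 0 genes called by edgeR and 8 of 10 at an unadjusted p under 0.05, beside 13.7% of all genes. It was 574, 492 and 352 CPM in Ogg1-/- and 339, 477 and 578 CPM in DKO, lowest in the libraries of Ogg1-/- replicate 3 and DKO replicate 1. The glucocorticoid genes summed to 405, 405 and 579 CPM in WT and to 682, 815 and 406 CPM in Mutyh-/-, and to 627, 526 and 438 CPM in Ogg1-/- and 596, 329 and 682 CPM in DKO. Mutyh-/- replicates 1 and 2 were thus high in both lists as in Per2, and the part of these genes in the clock gene levels was not tested.

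Marker genes of cell types also lay to the same side of WT in some groups. In NeuN+ Mutyh-/-, where Per3 was called, 5 of 8 neuronal markers were higher and 3 lower than in WT, with 5 at an unadjusted p under 0.05 (18.7% of all genes), 3 of them higher and 2 lower. Their sum was 6730, 6934 and 6363 CPM there, above 6284, 5976 and 6190 CPM in WT. Of 6 astrocyte markers, 6 were lower in NeuN+ Mutyh-/-, 6 in Ogg1-/- and 6 in DKO, with 1, 0 and 1 at an unadjusted p under 0.05 and 0 called by edgeR. In NeuN-, of 8 neuronal markers, with Syt1 and Camk2a the highest, 8 were lower in Mutyh-/-, 8 in Ogg1-/- and 8 in DKO than in WT, with 4, 5 and 6 at an unadjusted p under 0.05 and 0 called by edgeR. The joint test of the 4 genotypes called 1 of them, Grin1, named after its value was seen (edgeR adjusted p = 0.0425). Of 6 astrocyte markers, with Slc1a2 and Slc1a3 the highest, 3, 6 and 6 were higher, with 1, 4 and 4 at an unadjusted p under 0.05. Of 5 oligodendrocyte markers, 3, 5 and 5 were lower, with 0, 2 and 2. Beside these counts stand the 13.7%, 11.8% and 12.4% of all genes. Whether the mix of cells contributes to the levels of Per3 in NeuN+, or of Dbp, Nr1d1 or the other clock genes in NeuN-, was not tested. Aldh1l1 of astrocytes was at 88.6 ± 11.4 CPM in NeuN- WT and 128 ± 7.61 in Ogg1-/-, and it rose in NeuN- Ogg1-/- (log2 fold change 0.52 ± 0.10, edgeR adjusted p = 0.0483). The 3 choroid plexus markers, with Kcnj13 and Kl the highest, summed to 40.1 CPM in NeuN- DKO replicate 3, which had the lowest Dbp of its group, and to between 8.92 and 18.6 CPM in the other NeuN- libraries, and their part was not tested.

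Outside the 10 clock genes, the genes most like Dbp over the 12 NeuN- libraries, by Pearson's r of log2 CPM among genes with a mean of at least 1 CPM, were Sphk2 (r = 0.986), Ubr7 (0.954), Plekha1 (0.953), C920021L13Rik (0.948) and Gm47059 (0.932). Of the clock genes, Ciart (r = 0.975), Nr1d1 (0.953) and Nr1d2 (0.871) were close to Dbp, and Arntl was opposite (-0.83), whereas Per3 (0.704), Tef (0.574), Per2 (0.315), Per1 (0.201) and Cry1 (-0.47) were less alike. Sphk2 overlaps Dbp on the opposite strand, with 539 shared exon bases, Nr1d1 shares 263 exon bases with Thra, Tef 193 with Gm17597 and Arntl 33 with Gm45355, all on opposite strands. The use of strand in counting was not given in the sources used here, so reads in these shared bases cannot be told apart. C920021L13Rik overlaps Ciart on the opposite strand with 0 shared exon bases. Per3 overlaps Camta1 on the same strand, also with 0 shared exon bases. Whether unspliced Camta1 RNA of the nuclei adds to the Per3 counts was not tested. In NeuN+ the genes outside the 10 most like Dbp were BC049715 (r = 0.916), Upf3b (0.858), AI197445 (0.852), Osbpl2 (0.851) and Mthfd1l (0.848). Of the clock genes in NeuN+, Ciart was at 0.848, Nr1d2 at 0.645, Nr1d1 at 0.554, Tef at 0.390, Per1 at 0.301, Per3 at -0.00, Per2 at -0.05, Cry1 at -0.10 and Arntl at -0.56.

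Promoters, 250 bases before to 50 after the start, were found in RefSeq (GRCm38.p6) for 9 of the 10 genes, in 12 sequences. The E-box CACGTG, which reads the same on both strands, was in 5 of the 12, from 4 of the 9 genes, and in 7.15% of 32851 promoters. Its variant CACGTT was on either strand in 2 and in 4.68%. The D-box TTATGTAA was in 1 and in 0.938% of all promoters, TTACGTAA in 0 and in 0.119%, and the ROR and REV-ERB element AGGTCA in 3 and in 16.3%, both strands searched. A match is a description and not a bound site. The Dbp promoter held none of these motifs, and the sequences shown were chosen by the results of their genes. Shown are Per3, the gene called in NeuN+ Mutyh-/-, with both D-box matches in capitals (chr4:151044616-151044915, minus strand), and Nr1d1 and Ciart, which moved with Dbp in NeuN-, with the E-box variant (chr11:98775328-98775627, minus strand) and 3 E-boxes (chr3:95882179-95882478, minus strand) in capitals.
Per3: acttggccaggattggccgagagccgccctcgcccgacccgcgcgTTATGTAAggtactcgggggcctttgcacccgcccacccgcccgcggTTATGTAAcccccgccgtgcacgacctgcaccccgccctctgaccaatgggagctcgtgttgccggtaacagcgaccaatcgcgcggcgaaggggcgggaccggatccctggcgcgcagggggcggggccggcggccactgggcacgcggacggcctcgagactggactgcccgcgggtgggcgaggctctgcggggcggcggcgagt
Nr1d1: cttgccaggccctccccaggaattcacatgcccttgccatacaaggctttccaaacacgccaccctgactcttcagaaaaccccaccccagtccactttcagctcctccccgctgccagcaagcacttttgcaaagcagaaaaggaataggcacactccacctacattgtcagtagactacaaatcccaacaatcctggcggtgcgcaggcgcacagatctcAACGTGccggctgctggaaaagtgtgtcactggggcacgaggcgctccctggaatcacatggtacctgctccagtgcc
Ciart: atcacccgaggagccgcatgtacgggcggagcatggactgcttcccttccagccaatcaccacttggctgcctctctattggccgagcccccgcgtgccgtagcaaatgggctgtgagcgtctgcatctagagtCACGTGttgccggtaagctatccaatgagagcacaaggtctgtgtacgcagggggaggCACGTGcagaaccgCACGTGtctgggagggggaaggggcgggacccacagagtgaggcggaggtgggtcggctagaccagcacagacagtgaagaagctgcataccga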

How the data were processed

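Read pairs were aligned by the authors to GRCm38 with HISAT2 2.1.0 and assigned to genes with featureCounts, as the submitters' processing notes list, and the deposited values are counts that were not normalized. The software here was edgeR 4.0.16, with limma 3.58.1, under R 4.3.3. Within each fraction, genes were filtered with filterByExpr (30132 genes kept in NeuN+ and 31863 in NeuN-), scaled with TMM factors and fitted with all 4 genotypes together. Tests were edgeR's quasi-likelihood tests with Benjamini-Hochberg adjustment over all tested genes, and 95% intervals used the degrees of freedom of that fit. Fractions and interactions were compared in a fit of all 24 libraries with 33523 genes. Printed CPM use TMM factors of the 24 libraries, whereas tests use those of their own fit. Exon lengths, positions and overlaps came from GENCODE vM21 (GRCm38) by symbol. Named were the 10 genes, the targeted genes, members of the other lists that passed against WT, the 2 with the highest mean CPM of most lists described, and the 5 genes other than the 10 most like Dbp in each fraction. The 10 genes and the lists were chosen with earlier results of these data known. Alternatives were DESeq2 1.42.0, edgeR's likelihood ratio test, upper-quartile factors, no filter, at least 10 counts in every library, the replicate number as a block, a fit of 2 genotypes, and fits without 1 library. The fits were tested on simulated counts.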

Additional observations from a re-analysis of the deposited data

How the results depend on the processing

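In NeuN+ Mutyh-/- against WT, Per3 was called in 7 of 7 other settings, with log2 fold changes from 0.58 to 0.60, and in 8 of 12 fits without 1 library, with 0.51 to 0.70. The number of clock genes called there, and of DEGs, was 2 with edgeR's likelihood ratio test and 2 with no filter, where Per2 was the gene added. The likelihood ratio test called 3.78% of all genes in this comparison, beside 0.641% in the main fit. Without 1 library the number of clock genes called ranged from 0 to 3 (DEGs 0 to 2), with the highest without Mutyh-/- replicate 3. In NeuN+ Ogg1-/- against WT, DESeq2, no filter and the fit of 2 genotypes each called 2, Per3 and Nr1d1, and fits without 1 library 0 to 2. Where no share of all genes stands beside a count here, whether that setting called more genes in all is not shown. DKO against Mutyh-/- in NeuN+ gave 1 with DESeq2 (0.323% of all genes), the likelihood ratio test (0.325%) and no filter. Ogg1-/- against Mutyh-/- gave 1 with no filter, and both comparisons gave 0 to 1 without 1 library. The joint test in NeuN+ gave 2 with the likelihood ratio test and no filter, and 0 to 1 without 1 library. In NeuN- Mutyh-/-, DESeq2 and the likelihood ratio test called 1, Nr1d1 (adjusted p = 0.0117 and 0.0287), and the fit of 2 genotypes 2, and the joint test gave 1 with DESeq2. Between WT fractions, 7 genes were called, 6 with upper-quartile factors and 5 without replicate 2. The cause was not tested. No direction reversed.

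With the replicate number as a block, 1 clock gene, Per3, was called in NeuN+ Mutyh-/-, and no other call within a fraction changed. Deviations of same-numbered libraries of different genotypes had mean correlations over genes of -0.00487 in NeuN+ and 0.0463 in NeuN-. Between fractions, the block was genotype with number. It called 9 genes in WT, adding Per2 and Ciart, and 0 interactions, with 6 for Mutyh-/- at an unadjusted p under 0.05 (10.6% of all genes). The share of all genes that it called between WT fractions is not shown. NeuN+ and NeuN- libraries with the same genotype and number had correlations from 0.0189 to 0.337 (mean 0.142; other numbers -0.0702), and 11 of 12 NeuN+ and 10 of 12 NeuN- libraries correlated best with their own number, a hint from the data. The unpaired fit was kept by a rule set here, that every pair exceed 0.1, which 8 of 12 pairs met. This rule does not show that the fractions are independent. By the paper's methods, stained and unstained nuclei were both collected in sorting, but whether a shared number marks 1 sort is not stated. The calls of Per2 and Ciart between WT fractions, and the unadjusted interaction count for Mutyh-/-, thus depend on this choice.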
